A study of Mus musculus with 6 samples.

Results

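Transcripts of the tumor necrosis factor (TNF) superfamily were followed in whole lungs of TNF transgenic (TNF-Tg) and wildtype (WT) mice. The members were chosen by name. They were every gene symbol of the deposited count table that begins with Tnfsf (ligands) or Tnfrsf (receptors), together with Tnf, Cd40, Cd40lg, Cd27 and Cd70. This gave 38 of 49568 gene symbols, 22 of them receptors and 16 named for ligands. Among the 16, Tnfsf13os is an antisense RNA and Tnfsfm13 is a joined transcript of the neighbouring ligand genes Tnfsf12 and Tnfsf13. The TNF-Tg mice carried a single transgene, a human copy of the TNF-alpha gene that raises TNF levels, and littermates lacking it served as WT controls. All mice were females of 4 months on a C57BL/6 background. Each group had 3 lungs, and each lung was 1 library of poly(A) RNA from a different mouse. The promoter and the cells that drive the transgene are not given in the sources used here.

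Ligands of the TNF superfamily are mostly trimeric membrane proteins that can be shed from the cell. Their receptors carry cysteine-rich repeats outside the cell and pass the signal on through TRAF adaptors toward NF-kB, or, where they hold a death domain, also toward cell death. Soluble or signalling-deficient decoy receptors bind some of the ligands and withhold them from the signalling receptors. In the lung these pairs work between lymphocytes, macrophages, endothelium and epithelium.

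Total counts ranged from 25396923 to 30049463 in TNF-Tg lungs and from 31400978 to 32529408 in WT lungs, so that 3 counts, taken as the smallest detected level, stood at 0.0922 to 0.118 CPM (counting error only). Lung markers were present in every library, with 601111 to 774572 normalized counts summed over 8 genes in TNF-Tg and 1152023 to 1343385 in WT lungs, and 6 of the 8 were lower in TNF-Tg lungs. In 2 libraries the counts stood apart. TNF-Tg replicate 1 had 5.22% of its counts on Gm42418, against at most 0.274% in the other lungs. WT replicate 1 held 103915 normalized counts over 5 squamous epithelium markers and 41970 over 4 skeletal muscle markers, against at most 82.6 and 896 in the other lungs. Calls of named genes that were lost without either library are given beside their values.

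The sequence just upstream of the transcript start is shown for 4 members, because these hold the ligand that rose most (Tnf), the member with the most counts in TNF-Tg lungs (Tnfrsf1b), a receptor that rose and carries an NF-kB motif there (Tnfrsf8) and the receptor that fell most (Tnfrsf19). The letters are from RefSeq on GRCm38.p6, 5′ to 3′ on the strand of the gene. Each run holds the 250 bases before the start, and none of them overlaps a GENCODE M21 exon. Capitals mark TATAAA, searched on the strand of the gene, or the NF-kB consensus, searched on both strands.
Tnf (chr17:35202008-35202257, minus strand): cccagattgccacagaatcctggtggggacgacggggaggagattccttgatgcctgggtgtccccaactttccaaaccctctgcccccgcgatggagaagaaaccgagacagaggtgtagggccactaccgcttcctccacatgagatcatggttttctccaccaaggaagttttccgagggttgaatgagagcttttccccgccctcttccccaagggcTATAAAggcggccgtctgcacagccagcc
Tnfrsf1b (chr4:145246871-145247120, minus strand): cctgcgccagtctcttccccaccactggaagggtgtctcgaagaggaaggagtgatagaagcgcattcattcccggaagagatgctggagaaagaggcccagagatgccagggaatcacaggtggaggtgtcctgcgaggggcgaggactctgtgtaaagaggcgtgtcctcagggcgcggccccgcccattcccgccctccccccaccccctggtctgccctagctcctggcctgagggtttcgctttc
Tnfrsf8 (chr4:145315165-145315414, minus strand): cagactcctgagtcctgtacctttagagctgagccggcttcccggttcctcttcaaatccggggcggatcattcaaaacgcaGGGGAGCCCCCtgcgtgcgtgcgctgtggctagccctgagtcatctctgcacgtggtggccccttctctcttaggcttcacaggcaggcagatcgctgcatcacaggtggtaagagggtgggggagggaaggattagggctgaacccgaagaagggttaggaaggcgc
Tnfrsf19 (chr14:61046856-61047105, minus strand, the more distal of its 2 starts): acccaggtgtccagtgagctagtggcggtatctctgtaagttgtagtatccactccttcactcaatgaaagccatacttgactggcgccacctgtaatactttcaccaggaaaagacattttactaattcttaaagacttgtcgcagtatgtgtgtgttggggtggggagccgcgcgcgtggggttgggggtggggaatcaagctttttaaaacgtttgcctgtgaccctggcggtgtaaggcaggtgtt
In Tnf the TATAAA began 29 bases before the start. In Tnfrsf8 overlapping matches to the NF-kB consensus began 168 and 167 bases before it, and Tnfrsf1b and Tnfrsf19 held neither motif in these windows. The promoter table held 27 of the 38 members with 31 starts, of which 3 starts (9.68%), those of Tnfrsf8, Tnfrsf9 and Tnfrsf25, had a match to the NF-kB consensus, against 7.25% of 32851 promoters of all genes. TATAAA was found at 3 of the 31 starts (9.68%, Tnf, Tnfrsf17 and Tnfsf18), against 7.59% of all promoters. A match is a description of the letters and not a measured binding site.

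The first comparison asked which members differed between TNF-Tg and WT lungs. Of the 38 members, 35 passed the filter on low counts and were tested within a fit over 19199 genes, with adjusted p-values from edgeR's quasi-likelihood test and Benjamini-Hochberg adjustment over all of them. At an adjusted p of 0.05, 22 of the 35 (62.9%) were called, where 47.4% of all tested genes were called. Of these, 20 were higher and 2 were lower in TNF-Tg lungs, against 24.0% of all genes higher and 23.4% lower. The calls lay mainly among receptors. All 22 receptors were tested, and 16 rose, 2 fell (Tnfrsf19 and Tnfrsf12a) and 4 did not pass (Tnfrsf1a, Tnfrsf21, Tnfrsf22 and Tnfrsf25), with a median log2 fold change (log2FC, TNF-Tg over WT) of 1.24. Of the 13 tested ligand symbols, 4 rose (Tnf, Tnfsf11, Tnfsf9 and Tnfsf8), none fell and 9 did not pass, with a median of 0.19. Over all tested genes the median was 0.03. With an absolute log2FC of at least 1 as well, 17 members rose and 1 fell, where this rule called 10.3% of all genes higher and 12.2% lower. The groups did not overlap for 26 of the 35 members, against 58.7% of all genes. Between 18 and 22 members were called with each lung left out in turn, and 15 were called without both TNF-Tg replicate 1 and WT replicate 1, an alternative chosen after seeing the data.

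**Figure D1:**
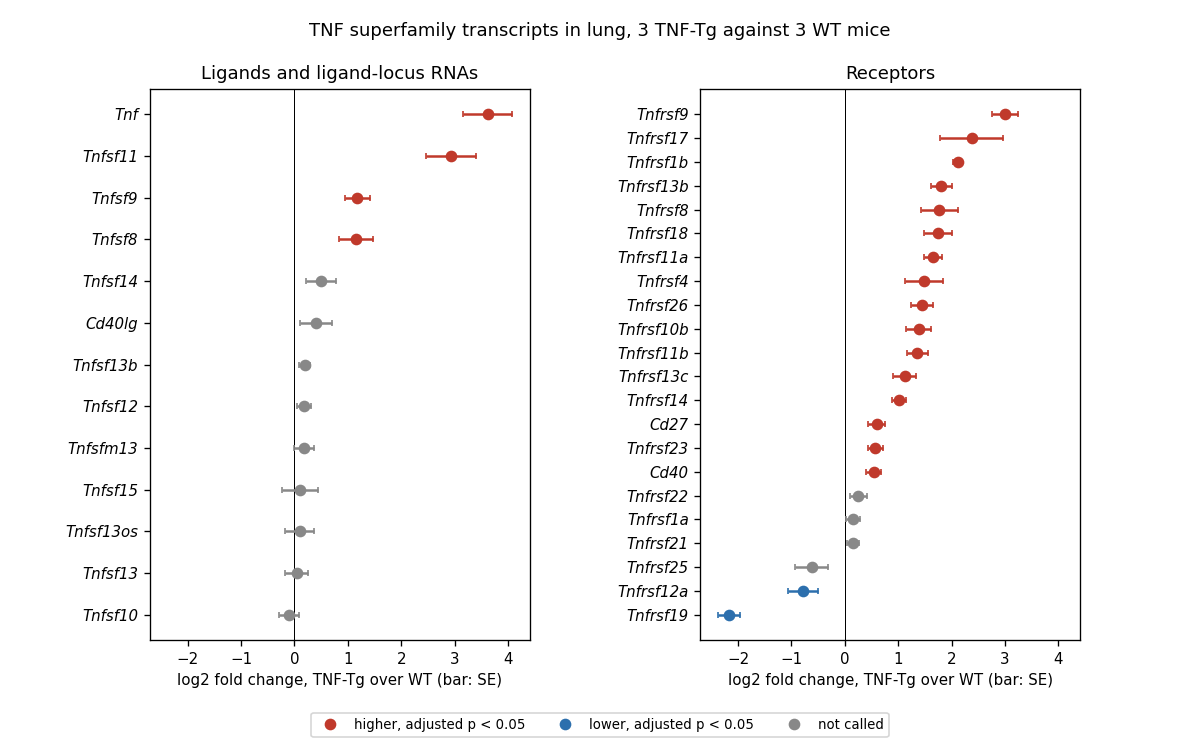
Log2FC of TNF-Tg over WT lungs (x axis) for the 35 tested members, with bars of 1 standard error (3 lungs per group), ligand symbols left and receptors right. Red and blue points had an adjusted p under 0.05. Receptors reach from 3.00 (Tnfrsf9) to -2.17 (Tnfrsf19), and 9 of the 13 ligand symbols are grey.

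Mouse Tnf, the founding ligand and a product mainly of macrophages and T cells, had the highest log2FC of the tested members. The gene (ENSMUSG00000024401.14, chromosome 17 of GRCm38, 35199381 to 35202007) had 106, 213 and 405 counts in the TNF-Tg lungs and 16, 14 and 35 in the WT lungs. In normalized counts (counts scaled to a common library size) these were 140, 220 and 382 against 15.3, 13.4 and 31.1. Each TNF-Tg lung lay above each WT lung, but the TNF-Tg lungs were widely spread, with replicate 3 highest and replicate 1 lowest. The log2FC was 3.62 with a standard error (SE) of 0.46 (adjusted p = 4.71e-04), and it stayed between 3.14 and 4.10 with each lung left out. These counts are reads placed on the mouse gene. The human transgene was not analysed here, and reads from it that may map to mouse Tnf cannot be told apart from those of the mouse gene.

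Of the receptors of TNF, Tnfrsf1b passed the test and Tnfrsf1a did not. Tnfrsf1b, the gene of TNF receptor 2, which is found mostly on leukocytes and endothelium and lacks a death domain, rose. Its normalized counts were 7248, 6547 and 6629 in TNF-Tg lungs and 1533, 1595 and 1595 in WT lungs, with little spread within either group (log2FC 2.11, SE 0.09, adjusted p = 4.99e-06). Tnfrsf1a, the gene of the widely expressed death domain receptor TNF receptor 1, had 4929, 5693 and 4390 against 4253, 5077 and 4071. These groups overlapped (log2FC 0.16, 95% interval -0.14 to 0.47, adjusted p = 0.342). Per length (TMM-scaled CPM per kilobase of exon), the level of Tnfrsf1b over that of Tnfrsf1a was 0.998, 0.780 and 1.02 in TNF-Tg and 0.245, 0.213 and 0.266 in WT lungs. All 3 TNF-Tg lungs lay above all 3 WT lungs, with means of 0.934 ± 0.134 (SD, n = 3) and 0.241 ± 0.0265 (SD, n = 3), and the two-sided exact permutation p of 0.1 is the smallest that 3 lungs against 3 allow. The groups were already far apart in Tnfrsf1b itself, so this p is no further support. Tnfrsf1b alone made up 28.4% to 30.6% of all counts on the 38 members in TNF-Tg lungs and 9.89% to 11.0% in WT lungs. Macrophage and monocyte markers were higher in the same lungs, 6 of 6, with summed normalized counts of 55961 to 67408 in TNF-Tg and 9178 to 9782 in WT lungs and none of the markers at 0. Relative to that sum Tnfrsf1b was lower in TNF-Tg lungs (9.71% to 11.8%, against 16.3% to 16.7%), while the relative values of Tnf overlapped (0.212% to 0.683% against 0.137% to 0.323%). Csf1r and Cd68 made up most of the sum, and the markers rose by unlike amounts, so these relative values depend on the markers chosen. Mrc1 (log2FC 1.53) rose less than Tnfrsf1b, and each of the other markers rose more, up to 3.33 for Cd68. The part of cell number in these results was not tested, since in bulk lung more cells of a type and more RNA per cell cannot be told apart.

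**Figure D2:**
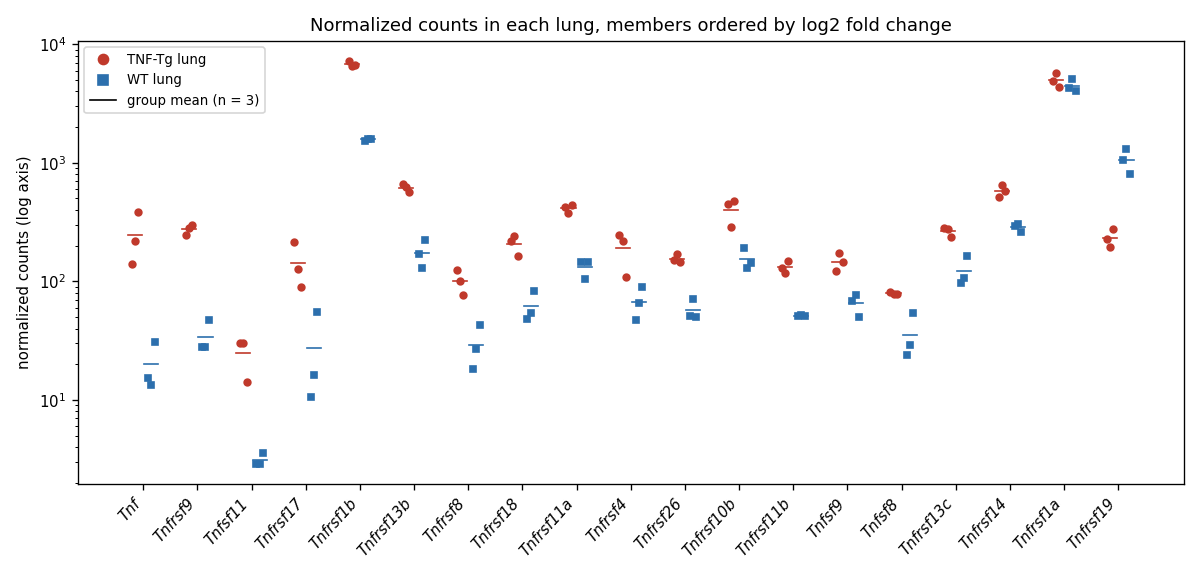
Normalized counts (log axis) of the 18 members past an adjusted p of 0.05 with an absolute log2FC of at least 1, and of Tnfrsf1a, in each of 3 TNF-Tg (red circles) and 3 WT (blue squares) lungs, with a line at each group mean. The groups overlap for Tnfrsf1a, and for the other members plotted they do not.

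The B cell receptors rose while their ligands did not pass the test. BAFF (Tnfsf13b) and APRIL (Tnfsf13) are the ligands that keep B cells and plasma cells alive, and they share the receptors TACI (Tnfrsf13b), BAFF-R (Tnfrsf13c, which binds BAFF) and BCMA (Tnfrsf17, found on plasma cells). Tnfrsf13b had 657, 626 and 563 normalized counts in TNF-Tg lungs and 171, 130 and 224 in WT lungs, with a gap between the groups wider than either group (log2FC 1.81, SE 0.20, adjusted p = 2.15e-04). Tnfrsf13c had 281, 279 and 239 against 97.5, 107 and 163, where WT replicate 3 was the highest WT lung (log2FC 1.12, SE 0.22, adjusted p = 0.00391). Tnfrsf17 had 216, 127 and 89.7 against 10.5, 16.3 and 55.1. It was the most uneven of these receptors, with TNF-Tg replicate 1 highest and WT replicate 3 well above the other WT lungs (log2FC 2.38, SE 0.59, adjusted p = 0.0114). With each lung left out its log2FC ranged from 1.94 (without TNF-Tg replicate 1) to 3.40 (without WT replicate 3), and without both TNF-Tg replicate 1 and WT replicate 1 it was 1.55 with an adjusted p of 0.0532.

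Tnfsf13b was measured well above the floor, at 854, 880 and 942 normalized counts against 721, 798 and 827. The groups did not overlap, but the log2FC of 0.19 (95% interval -0.04 to 0.42) did not pass (adjusted p = 0.154). Tnfsf13 had 127, 124 and 108 against 89.8, 120 and 140 (log2FC 0.04, 95% interval -0.45 to 0.52, adjusted p = 0.906). Cd40, the receptor through which T cells license B cells and dendritic cells, was 538, 492 and 598 against 373, 423 and 324 (log2FC 0.54, SE 0.14, adjusted p = 0.0141). This call was lost without TNF-Tg replicate 1 (adjusted p = 0.0533), without TNF-Tg replicate 3 (0.0577) and without WT replicate 1 (0.0504), while the log2FC stayed between 0.45 and 0.63. Its ligand Cd40lg, a product of activated T cells, had 22, 20 and 21 counts against 17, 20 and 19 (log2FC 0.40, adjusted p = 0.313).

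Markers of the same cells moved with these receptors. Of 4 B cell markers, 3 were higher in TNF-Tg lungs (Ms4a1, Cd79a and Cd79b), and Pax5 did not pass, with summed normalized counts of 5521 to 6500 in TNF-Tg and 2507 to 4566 in WT lungs. WT replicate 3 had the highest B cell sum of the WT lungs, as it had the highest Tnfrsf13c. Tnfrsf13b stood at 10.1% to 10.3% of the B cell sum in TNF-Tg and 4.39% to 6.82% in WT lungs, and Tnfrsf13c at 4.32% to 4.60% and 3.56% to 3.89%. Relative to the summed markers, both were thus above all WT lungs in every TNF-Tg lung. Cd40 was not, with 8.28%, 8.11% and 10.8% in TNF-Tg and 14.9%, 14.2% and 7.10% in WT lungs, where 2 WT lungs lay above every TNF-Tg lung and 1 below. The gap of Tnfrsf13c was narrow, and Cd79a, the largest part of the B cell sum, rose by nearly as much (log2FC 1.04 against 1.12). Of 5 plasma cell markers, 4 were higher, and the sum was 67371 to 136755 in TNF-Tg and 11448 to 16733 in WT lungs. The values of Tnfrsf17 relative to that sum overlapped (0.113% to 0.158%, against 0.0918% to 0.329%). Sdc1 and Xbp1, which other cells also express, made up most of that sum in WT lungs. Over Jchain, Mzb1 and Derl3 alone, a choice made after their values were seen, the sums were 55921 to 119857 against 948 to 5960, and Tnfrsf17 was lower relative to them in TNF-Tg lungs (0.129% to 0.180%, against 0.924% to 1.11%). No listed B or plasma cell marker was at 0 in any lung, and the part of cell number was not tested.

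Among the ligands and receptors of T cell costimulation, 12 of 15 were tested, 8 rose, none fell and 4 did not pass (66.7% called, against 47.4% of all tested genes called and 24.0% higher). Without both TNF-Tg replicate 1 and WT replicate 1 the count was 5. Tnfrsf9 (4-1BB, CD137), a costimulatory receptor that appears on T cells after activation and also on other leukocytes and endothelium, rose most of all receptors. The gene (ENSMUSG00000028965.13, chromosome 4, 150914562 to 150946102) had 247, 284 and 296 normalized counts in TNF-Tg lungs and 27.7, 27.8 and 47.1 in WT lungs. Its TNF-Tg values lay close together and far above each WT lung (log2FC 3.00, SE 0.25, adjusted p = 5.23e-05). Its ligand Tnfsf9, found on antigen-presenting cells, rose less, from 68.8, 76.7 and 49.8 to 123, 172 and 146 (log2FC 1.18, SE 0.23, adjusted p = 0.00419).

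Tnfrsf18 (GITR) and Tnfrsf4 (OX40), both high on regulatory and activated T cells, rose. Tnfrsf18 had 220, 241 and 163 normalized counts against 47.8, 54.6 and 82.6 (log2FC 1.75, SE 0.26, adjusted p = 0.00105). In Tnfrsf4 the lowest TNF-Tg lung, replicate 3, came close to the highest WT lung, with 244, 217 and 108 against 46.8, 66.1 and 89.7 (log2FC 1.48, SE 0.35, adjusted p = 0.00983). Without both TNF-Tg replicate 1 and WT replicate 1 the adjusted p of Tnfrsf4 was 0.0781. Their ligands were near the floor and were not tested. Tnfsf4 (OX40L) had 13, 6 and 13 counts in TNF-Tg lungs and 2, 0 and 0 in WT lungs, and Tnfsf18 (GITRL) had 7, 5 and 7 against 0, 1 and 3. Without the filter on low counts Tnfsf4 passed (adjusted p = 0.00531) and Tnfsf18 did not (adjusted p = 0.082).

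Tnfrsf8 (CD30), a receptor of activated lymphocytes, had 125, 100 and 76.5 normalized counts in TNF-Tg and 18.2, 26.8 and 42.7 in WT lungs (log2FC 1.77, SE 0.35, adjusted p = 0.00387). The upstream window of Tnfrsf8 with its NF-kB motif is printed above. Its ligand Tnfsf8 (CD30L) had 81.7, 77.6 and 78.4 against 23.9, 28.8 and 54.2, with even TNF-Tg lungs and WT replicate 3 above the other WT lungs (log2FC 1.15, SE 0.32, adjusted p = 0.0198). The call of Tnfsf8 was lost without TNF-Tg replicate 1 (adjusted p = 0.0587) or 3 (0.0525) and without WT replicate 1 (0.0604) or 2 (0.0685). Tnfrsf14 (HVEM), a receptor that also binds the inhibitory ligand BTLA, had 518, 648 and 578 against 293, 307 and 260, and rose (log2FC 1.02, SE 0.13, adjusted p = 5.40e-04). Its ligand Tnfsf14 (LIGHT) did not pass, with 107, 67.2 and 74.6 against 47.8, 51.8 and 76.4 (log2FC 0.49, 95% interval -0.15 to 1.13, adjusted p = 0.184).

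Cd27, a receptor of naive and memory T cells and of memory B cells, rose by less, from 109, 107 and 124 to 174, 183 and 160 normalized counts (log2FC 0.60, SE 0.16, adjusted p = 0.0172). Its call was lost without TNF-Tg replicate 1 (adjusted p = 0.0579) or 2 (0.0535) and without WT replicate 1 (0.0631) or 2 (0.0574). Its ligand Cd70 had 7, 1 and 2 counts in TNF-Tg and 0, 2 and 0 in WT lungs, which was too few to test. Tnfrsf25 (DR3), the death domain receptor of the ligand TL1A (Tnfsf15), was below WT in each TNF-Tg lung, at 84.4, 184 and 204 against 291, 208 and 229, but did not pass (log2FC -0.62, 95% interval -1.33 to 0.10, adjusted p = 0.135). The log2FC of Tnfrsf25 was -0.36 without TNF-Tg replicate 1 and -0.21 without both that lung and WT replicate 1. Tnfsf15 itself had 17, 34 and 29 counts against 36, 28 and 20, and the groups overlapped (log2FC 0.11, adjusted p = 0.803).

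Of 6 T cell markers, 5 were higher in TNF-Tg lungs and Cd3e did not pass. Cd4, which macrophages can also carry, rose far more than the others (log2FC 4.84). The sum was therefore also taken without Cd4, a choice made after its values were seen, and was then 2281 to 2618 normalized counts in TNF-Tg and 1014 to 1815 in WT lungs, with no marker at 0. Tnfrsf9 stood at 10.2% to 13.0% of that sum in TNF-Tg and 2.30% to 2.73% in WT lungs, and Tnfrsf18 at 7.16% to 9.20% and 4.52% to 4.71%, so both lay above WT relative to these markers as well. Relative values of Tnfrsf4 (4.72% to 10.1% against 4.62% to 5.47%) and of Cd27 (6.99% to 7.21% against 6.86% to 10.7%) overlapped. With Cd4 in the sum, Tnfrsf18, Tnfrsf4 and Cd27 were lower relative to it in TNF-Tg lungs and Tnfrsf9 overlapped, so the order of the groups changed with that single gene. The part of T cell number was not tested.

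**Figure D3:**
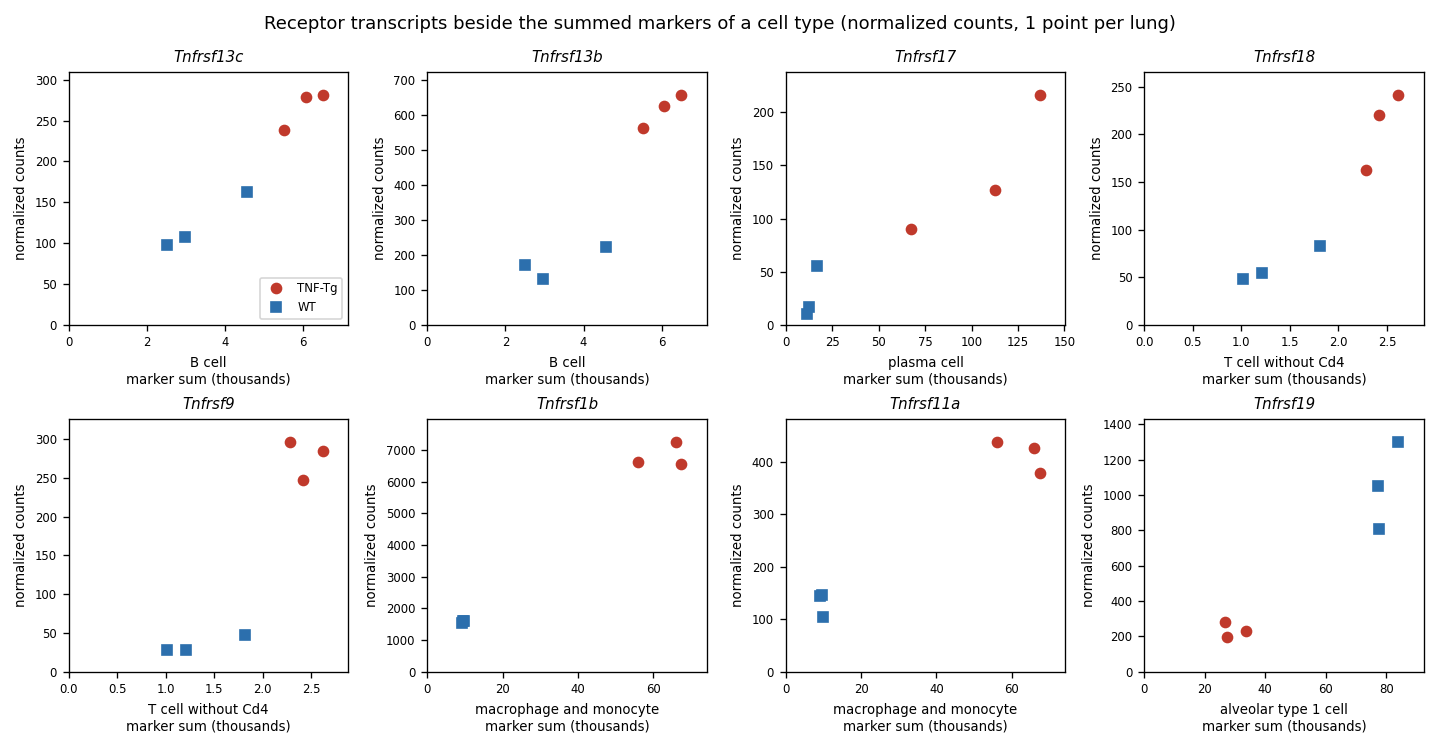
Normalized counts of 8 receptors (y axis) against the summed normalized counts of the markers of a cell type (x axis, in kilocounts), with 1 point per lung, red circles for TNF-Tg and blue squares for WT. In all 8 panels the TNF-Tg and WT lungs form separate clusters, so no correlation is given. Tnfrsf19 and the alveolar type 1 markers are lower in TNF-Tg lungs, and the other 7 receptors are higher together with their markers.

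All 3 genes of the osteoclast axis rose, where 24.0% of all tested genes did. With at least 10 counts in every lung as the filter, Tnfsf11 was not tested and the other two rose. RANKL (Tnfsf11) drives osteoclast formation through its receptor RANK (Tnfrsf11a) on cells of the macrophage lineage, and osteoprotegerin (Tnfrsf11b) is the secreted decoy that blocks it. Tnfsf11 (ENSMUSG00000022015.8, chromosome 14, 78277445 to 78308043) was close to the floor, with 23, 29 and 15 counts in TNF-Tg and 3, 3 and 4 in WT lungs (log2FC 2.93, SE 0.47, adjusted p = 0.00147). The fold rests on WT counts at or just over 3, while no TNF-Tg lung came near them. Tnfrsf11a had 427, 380 and 438 normalized counts against 145, 105 and 146 (log2FC 1.65, SE 0.17, adjusted p = 1.61e-04). Tnfrsf11b rose from 50.6, 51.8 and 51.5 to 129, 118 and 148, with WT lungs that hardly differed among themselves (log2FC 1.36, SE 0.19, adjusted p = 7.65e-04). Relative to the macrophage and monocyte sum, Tnfrsf11a was lower in TNF-Tg lungs (0.563% to 0.783% against 1.08% to 1.58%). Of those markers Mrc1 (log2FC 1.53) rose slightly less than Tnfrsf11a, and each of the others rose more.

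The TRAIL ligand (Tnfsf10), which can trigger apoptosis, did not pass while its death receptor rose. Tnfsf10 was abundant, at 2028, 1704 and 2655 normalized counts in TNF-Tg and 2554, 2443 and 1873 in WT lungs (log2FC -0.10, 95% interval -0.52 to 0.31, adjusted p = 0.659). Tnfrsf10b (DR5), the mouse death receptor of TRAIL, had 446, 285 and 472 against 190, 129 and 143, with TNF-Tg replicate 2 nearest to the WT lungs (log2FC 1.38, SE 0.23, adjusted p = 0.00191). A cluster on chromosome 7 (143607659 to 143685872) holds 3 receptor genes, of which Tnfrsf22 and Tnfrsf23 encode decoy TRAIL receptors of the mouse. Tnfrsf26 had 150, 169 and 146 against 50.6, 70.9 and 49.8 and rose (log2FC 1.44, SE 0.21, adjusted p = 9.55e-04). Relative to the macrophage and monocyte sum, Tnfrsf26 was lower in TNF-Tg lungs (0.228% to 0.261%, against 0.517% to 0.725%). Tnfrsf23 rose by less, from 172, 156 and 152 to 241, 230 and 241 (log2FC 0.57, adjusted p = 0.0121, and 0.0872 without both TNF-Tg replicate 1 and WT replicate 1), and Tnfrsf22 did not pass (454, 388 and 492 against 408, 413 and 301, adjusted p = 0.242). These latter 2 are uncertain as separate genes, since 9.31% of the 100-base windows of Tnfrsf23 transcripts also occur in Tnfrsf22, and 15.8% of those of Tnfrsf22 occur in Tnfrsf23 or other genes.

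Of the receptors known from epithelium and stroma, 2 fell and 1 did not pass, where 23.4% of all tested genes fell. The count of 2 was 1 without TNF-Tg replicate 1 or 2, without WT replicate 1 or 3 and with total counts as the only scaling, as the call of Tnfrsf12a was then lost. Tnfrsf19 (TROY), a receptor of epithelial progenitors and of the nervous system, showed the largest fall of the members tested. The gene (ENSMUSG00000060548.13, chromosome 14, 60963875 to 61046490) had 228, 195 and 278 normalized counts in TNF-Tg lungs and 1045, 1301 and 809 in WT lungs. The lowest WT lung was far above the highest TNF-Tg lung (log2FC -2.17, SE 0.21, adjusted p = 1.05e-04), and with each lung left out the log2FC stayed between -2.33 and -1.99. Markers of alveolar type 1 cells fell as well, 3 of 3, with sums of 26585 to 33615 in TNF-Tg and 77346 to 83989 in WT lungs, and Tnfrsf19 relative to that sum overlapped between the groups (0.679% to 1.05% against 1.04% to 1.55%). Fibroblast markers were lower for 3 of 4 genes (sums of 24623 to 25750 against 33608 to 52887) and endothelial markers for 4 of 4 (32119 to 38896 against 60452 to 76582), with no marker at 0. The largest fall in each list was that of Rtkn2 (alveolar type 1, log2FC -1.81), Col1a1 (fibroblast, -1.34) and Tek (endothelium, -1.94). Each was smaller than the fall of Tnfrsf19, which was set relative to the alveolar type 1 sum only. The part of these cell types in the fall of Tnfrsf19 was not tested.

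Tnfrsf12a (Fn14), the receptor of TWEAK (Tnfsf12) and a gene of injured epithelium and muscle, had 227, 142 and 278 normalized counts against 347, 282 and 481. The highest TNF-Tg lung lay just under the lowest WT lung, and the call was marginal (log2FC -0.78, SE 0.28, adjusted p = 0.0499). It was lost without TNF-Tg replicate 1 (adjusted p = 0.0863) or 2 (0.13) and without WT replicate 1 (0.079) or 3 (0.151), and with total counts as the only scaling (0.0603). WT replicate 1, the library with skeletal muscle transcripts, had the middle value of the WT lungs for Tnfrsf12a. Of 3 fat cell markers, 1 was lower in TNF-Tg lungs, with sums of 125, 104 and 901 in TNF-Tg and 1174, 875 and 1749 in WT lungs. The part of muscle or fat in the values of Tnfrsf12a was not tested. Tnfsf12 had 770, 837 and 684 against 602, 659 and 755 (log2FC 0.18, 95% interval -0.11 to 0.48, adjusted p = 0.269). Tnfrsf21 (DR6), a death domain receptor of many tissues, stayed within 1074 to 1330 in TNF-Tg and 1014 to 1169 in WT lungs (log2FC 0.15, 95% interval -0.11 to 0.41, adjusted p = 0.306).

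The genes of the TWEAK and APRIL locus on chromosome 11 share exons. Tnfsfm13 shares 48.3% of the exon bases of Tnfsf12 and 60.0% of those of Tnfsf13 on the same strand, and Tnfsf13os covers 13.5% of the exon bases of Tnfsf13 on the opposite strand. How reads in shared exons were counted, and whether strand was used, is not given in the sources used here, so the split of counts among these 4 genes is uncertain. None of them was called. Tnfsfm13 had 66, 90 and 98 counts in TNF-Tg and 83, 82 and 94 in WT lungs, and Tnfsf13os had 101, 123 and 145 against 84, 123 and 194. An antisense gene also covers 27.2% of the exon bases of Tnfrsf18, and a lincRNA on the opposite strand covers 14.9% of those of Tnfsf9.

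The second comparison set each receptor beside its ligand, on the scale of levels per length. In WT lungs Tnfrsf1a was the most abundant member (57.0), followed by Tnfsf12 (14.7), Tnfsf10 (14.4) and Tnfrsf1b (13.6). In TNF-Tg lungs Tnfrsf1a (63.9) and Tnfrsf1b (59.0) stood above all others, with Tnfsf12 (16.7), Tnfrsf14 (13.4) and Tnfsf10 (13.4) next. The level of Tnf rose from 0.402 to 5.0, and was still under that of either of its receptors. Tnfsf11 was among the scarce ligands, at 0.0459 in WT and 0.367 in TNF-Tg lungs. Levels of scarce genes rest on few counts, and those of Tnfsf12 and Tnfsf13 on the uncertain split.

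For 16 receptor and ligand pairs with counts in every lung, the log2 of the receptor level over the ligand level was taken in each lung. For Tnfrsf1a over Tnf it was 4.48, 4.03 and 2.86 in TNF-Tg and 7.46, 7.90 and 6.37 in WT lungs, so the excess of receptor over ligand transcript was smaller in each TNF-Tg lung. For Tnfrsf9 over Tnfsf9 it was -0.07, -0.35 and -0.06 against -2.39, -2.54 and -1.16, where the receptor came up to the level of its ligand. In the BAFF and APRIL system all 5 pairs shifted toward the receptor. Tnfrsf13b over Tnfsf13b, for example, moved from -0.80, -1.34 and -0.61 in WT to 0.90, 0.78 and 0.53 in TNF-Tg lungs, from less receptor than ligand to more. Tnfrsf10b over Tnfsf10 moved from -3.80, -4.29 and -3.76 to -2.24, -2.63 and -2.54. Both receptors of RANKL moved the other way relative to this scarce ligand. Tnfrsf11a over Tnfsf11 went from 4.24, 3.78 and 3.94 in WT to 2.40, 2.24 and 3.53 in TNF-Tg lungs. Osteoprotegerin over RANKL went from 3.81, 3.84 and 3.52 in WT to 1.76, 1.64 and 3.05 in TNF-Tg lungs, where TNF-Tg replicate 3 stayed closest to the WT lungs. Tnfrsf12a over Tnfsf12 went from -1.15, -1.58 and -1.0 in WT to -2.11, -2.91 and -1.65 in TNF-Tg lungs, also away from the receptor. Tnfrsf25 over Tnfsf15 went from 3.64, 3.51 and 4.25 to 2.47, 2.94 and 3.45, though neither gene passed the test by itself. Tnfrsf8 over Tnfsf8 was -0.26, 0.04 and -0.21 in WT and 0.75, 0.51 and 0.10 in TNF-Tg lungs, a narrow gap toward the receptor. Of the 16 pairs, several of which share a gene, 8 lay higher in every TNF-Tg lung than in any WT lung and 5 lay lower. The lungs overlapped for the other 3, Tnfrsf1b over Tnf, Cd40 over Cd40lg and Tnfrsf14 over Tnfsf14. No share over other gene pairs was taken, so whether these counts of pairs are unusual is not known. Of all single genes tested, the groups did not overlap for 58.7%. Both pairs with Tnfsf11 rest on WT counts of 3, 3 and 4. The values are descriptions of transcript levels, and no test was run on them.

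**Figure D4:**
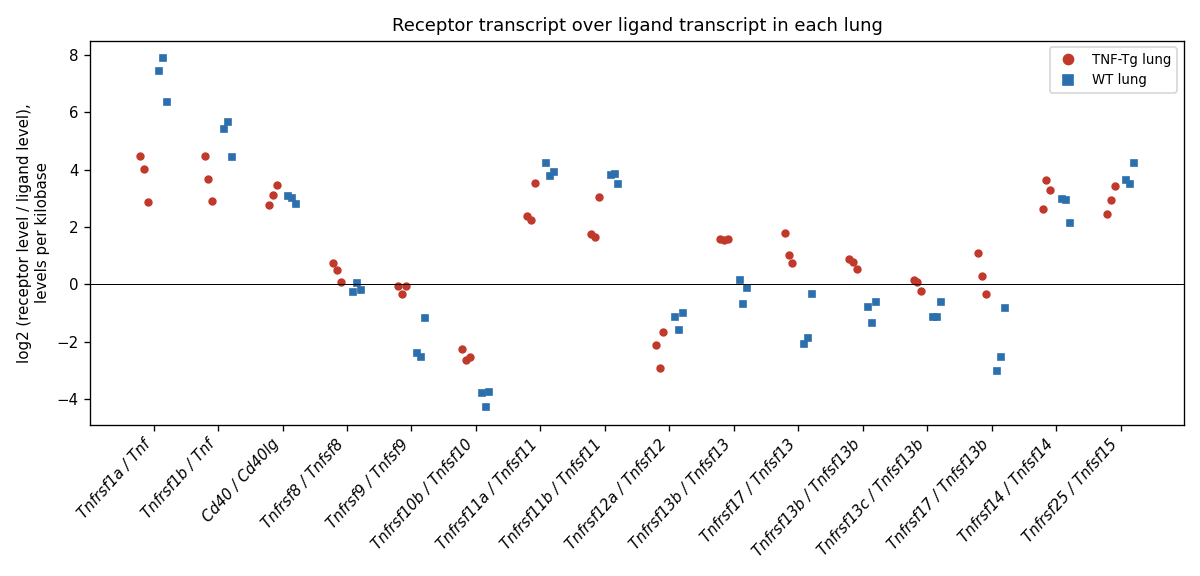
Log2 of the receptor level over the ligand level, both per kilobase of exon (y axis), for 16 pairs in each of 3 TNF-Tg (red circles) and 3 WT (blue squares) lungs. The line at 0 marks equal levels. Tnfrsf13b over Tnfsf13b lies above it in the 3 TNF-Tg lungs and below it in the 3 WT lungs.

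The members also share chromosomal positions. Chromosome 4 of GRCm38 holds 7 of the receptor genes within 10.8 megabases (145213463 to 156028895), namely Tnfrsf1b, Tnfrsf8, Tnfrsf9, Tnfrsf25, Tnfrsf14, Tnfrsf4 and Tnfrsf18. Of these 6 rose and Tnfrsf25 did not pass, beside 16 of 22 receptors and 24.0% of all tested genes that rose. The fold changes within the cluster ranged from a log2 of -0.62 for Tnfrsf25 to 3.00 for Tnfrsf9, so neighbours did not move by the same amount. On chromosome 17, Cd70 lies between Tnfsf9 and Tnfsf14. Of these 3, Tnfsf9 rose, Tnfsf14 did not pass and Cd70 was too low to test.

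Genes that work with the superfamily but carry other names were taken from a list of 33, all of which were tested. Of these, 17 rose, 3 fell and 13 did not pass, which was 60.6% called against 47.4% of all tested genes. Among 10 further ligands and receptors, 3 rose and 2 fell (50.0% called, close to the 47.4%), a count of 5 that was 3 without TNF-Tg replicate 1 and 3 without WT replicate 2. Ltb, a subunit of the membrane lymphotoxin that organizes lymphoid tissue, rose from 381, 417 and 635 to 797, 1116 and 1394 counts (log2FC 1.41, SE 0.18, adjusted p = 4.47e-04). Its receptor Ltbr, carried by stromal and myeloid cells, was marginally lower (log2FC -0.25, SE 0.09, adjusted p = 0.0449). The call of Ltbr was lost in 9 of 14 alternatives, among them each of the TNF-Tg lungs left out (adjusted p = 0.0545, 0.0767 and 0.0916), WT replicate 1 or 2 left out (0.0825 and 0.0881), total counts as the only scaling (0.0736) and the replicate block (0.0995). Lta, the secreted lymphotoxin, did not pass (33, 59 and 87 counts against 17, 24 and 51, adjusted p = 0.0509), but did in 6 of 14 alternatives. Fasl, the death ligand of cytotoxic lymphocytes, had 52, 27 and 37 counts against 19, 21 and 22 (log2FC 1.16, adjusted p = 0.0357). TNF-Tg replicate 1 was highest, and without it the log2FC was 0.67 (adjusted p = 0.15). The call of Fasl was also lost without WT replicate 1 (0.0955), 2 (0.0835) or 3 (0.075), with the replicate block (0.0725) and by limma-voom (0.0597). Of 4 natural killer and cytotoxic cell markers, 3 were lower in the same TNF-Tg lungs (Gzma, Ncr1 and Prf1), with sums of 298 to 336 normalized counts against 910 to 1349, and their part was not tested. Fas, the receptor of Fasl, did not pass (log2FC 0.04, adjusted p = 0.865).

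Of 23 adaptors and regulators next to the receptors, 14 rose, 1 fell and 8 did not pass, which was 65.2% called against 47.4% of all genes. The largest log2FC of the list were those of Tnip3, Tnfaip3 and Birc3, all known as targets that NF-kB induces. Tnip3, which binds A20, had 402, 360 and 435 counts in TNF-Tg and 25, 19 and 29 in WT lungs (log2FC 4.26, SE 0.22). Tnfaip3 (A20), a ubiquitin-editing enzyme that restrains NF-kB signalling, had 5700, 4796 and 5468 against 435, 453 and 524 (log2FC 3.74, SE 0.18), and Birc3 (cIAP2), a ubiquitin ligase bound to TRAF2 that takes part in TNF receptor signalling toward NF-kB, had 2973, 3575 and 4526 against 909, 977 and 1062 (log2FC 2.11, SE 0.10). For all 3 the groups were far apart. The genes that fell were Eda, the ectodysplasin ligand of skin appendages (log2FC -1.51, adjusted p = 0.00192), Rnf31, the catalytic subunit of the linear ubiquitin ligase (log2FC -0.64, adjusted p = 3.47e-04), and Ltbr. Of the 6 TRAF genes, Traf2 and Traf3 rose (log2FCs 0.57 and 0.89) and Traf1, Traf4, Traf5 and Traf6 did not pass.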

How the data were processed

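Lungs of 3 TNF-Tg and 3 WT mice were profiled by stranded, single-end mRNA sequencing. The authors deposited raw counts per gene symbol. According to the submitters' processing notes, reads were cleaned with Trimmomatic (version 0.36), mapped to GRCm38.p5 with STAR (2.5.2b) and counted with featureCounts. The annotation and the strand setting are not given in the sources used here. Symbols of the members were placed with GENCODE M21 (GRCm38), which held all 38.

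Genes kept by filterByExpr were scaled by TMM, and TNF-Tg was compared with WT over all 6 lungs by the quasi-likelihood test of edgeR (4.0.16, under R 4.3.3), with no covariate. P-values were adjusted by Benjamini-Hochberg, with 0.05 as threshold. The SE is the size of the log2 fold change over the square root of F, and 95% intervals use the degrees of freedom of the test. Normalized counts are counts over the TMM-scaled total, times its mean. Alternatives were DESeq2 (1.42.0), limma-voom (3.58.1), other scalings and filters, the replicate number as a block and each lung left out. Programs were tested on simulated data.

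The members, gene lists and tests were chosen with earlier results of these data known. Named are Tnf, Tnfrsf1a and Tnfrsf1b, members past 0.05 with an absolute log2 fold change of at least 1, the others by class with their pairs, and of the 33 other genes the 3 that rose most, the 3 that fell most and Lta, Ltb, Ltbr, Fas and Fasl. One gene of the B cell marker list is not reported here and is not in its sums, for a reason unrelated to its values. The Traf genes were named after their values were seen. The lungs came from different animals, but litters are not given, so p-values measure the spread between these mice.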

Additional observations from a re-analysis of the deposited data

How the results depend on the processing

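Of the 35 tested members, 24 kept their call and direction in every alternative run for them, 7 called members lost the call in at least 1, and 0 of the 13 members not called gained one. Members not tested in the main fit are outside this tally but enter the counts below where an alternative tested them. Of these, Tnfsf4 passed without a filter on low counts. The number of members called was 22, with 23 by DESeq2 and 23 without a filter on low counts, 22 by limma-voom, 22 with DESeq2's size factors and 21 with total counts only. With each lung left out it was 18 to 22, for ligand symbols 3 to 5 and for receptors 15 to 17. An absolute log2 fold change of at least 1 cut the genes called from 9096 to 4320 and the list of 33 other genes from 20 to 11, by its own construction. Directions reversed in 4 members, none of them called. These were Tnfsf10 (0.03 without TNF-Tg replicate 2, -0.31 to 0.03 with each lung left out), Tnfsf15 (-0.07 without TNF-Tg replicate 2 and -0.11 without WT replicate 3, in all -0.11 to 0.33), Tnfsf13os (-0.16 without WT replicate 1, in all -0.16 to 0.41, and -0.18 without that lung and TNF-Tg replicate 1) and Tnfsf13 (-0.04 without TNF-Tg replicate 1, -0.15 without WT replicate 1, in all -0.15 to 0.18, and -0.20 without both). Of the other genes named, Fas (-0.00 with total counts only, -0.07 without TNF-Tg replicate 1, -0.12 without WT replicate 1, in all -0.12 to 0.20, and -0.20 without both) and Traf4 (0.05 without WT replicate 3, in all -0.13 to 0.05) reversed, and Traf6 passed without WT replicate 3. Their cause was not tested. Other scalings moved the median log2 fold change of all genes by at most -0.03. With the replicate number as a block, 21 members were called, 17 of them receptors, and Cd27 was lost (adjusted p = 0.0527). The numbers do not pair the mice, which are different animals, and the deviations of same-numbered lungs correlated at -0.15, -0.00 and -0.24. With the longest transcript as length, 26 of 76 levels per length moved by more than 1 SD. Depth limits Tnfsf4, Tnfsf18, Cd70 and Tnfsf11 most.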
